A study of Mus musculus with 6 samples.

Results

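Expression of 7 genes was followed in cells sorted from the mouse olfactory epithelium: Snai1, Snai2, Zeb1, Zeb2, Twist1, Twist2 and Vim. They are 7 of 18193 genes named on the array, taken by the gene symbol of the platform table. They were selected on their intensities in the comparison of sorts below, so their own differences are described and not tested. The ICAM1-positive sort came from CD1 mice, with litters at postnatal days 21, 22 and 24 as replicates 1, 2 and 3. The ICAM1-negative sort came from the same CD1 litters, and neither sort carried a transgene or a treatment in the labels. Sorting used a fluorescent antibody to ICAM1 (CD54), a surface adhesion protein, each litter pooled its animals, and each sort went to its own Affymetrix array, which makes 3 arrays per sort and 6 in all. Litter and age cannot be told apart.

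Snail (Snai), Zeb and Twist proteins are DNA-binding transcription factors best known for driving epithelial-mesenchymal transition, in which epithelial cells lose E-cadherin junctions and gain motility. Snail and Zeb proteins are zinc finger repressors that bind the E-box letters CACCTG in the promoters of junction genes, and Twist proteins are basic helix-loop-helix factors that pair with E proteins. Vimentin, encoded by Vim, is the intermediate filament protein of mesenchymal cells and is used as a marker of that transition, but macrophages, glia and olfactory sensory neurons contain it as well. Snai2 (Slug) is also known from the basal cells of several stratified and pseudostratified epithelia, among them skin and mammary gland.

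The values are scaled linear intensities, and array medians lay between 87.9 and 102.8. The correlation of log2 intensities, over the 38694 probe sets that passed the filter on low values given below, was 0.934 to 0.944 for 2 arrays of 1 sort. It was 0.762 to 0.794 for arrays of different sorts. Icam1, the antigen of the sort, had intensities of 7246.5, 6817.2 and 6857.1 in ICAM1-positive arrays, against 13, 16.1 and 33.2 in ICAM1-negative arrays, in keeping with the titles, whereas the free-text descriptions name the opposite population. All 10 horizontal basal cell markers tested were higher in the ICAM1-positive sort (summed intensity 102758 to 104911, against 761.3 to 1272.2), and all 9 olfactory neuron markers were lower (4164.5 to 7608.7, against 75339.8 to 90484.1). Of 14 macrophage markers 13 were higher (20210.1 to 25340.7, against 1211.8 to 1578.2). Of 9 sustentacular markers 6 were higher (75704.4 to 86342.2, against 26032 to 40383.8). Among these, Cbr2, Krt8 and Krt18 had the highest mean intensities in ICAM1-positive arrays (25138, 14431 and 11961). The other sustentacular markers, Cyp2g1, Cyp1a2 and Muc2, overlapped between sorts and leaned lower. Their log2 differences were -0.29, -0.69 and -0.42 (limma adjusted p = 0.661, 0.342 and 0.643). Whether the ICAM1-positive sort held more sustentacular cells was not tested. In sorted bulk samples such as these, fewer cells of a type and less RNA per cell cannot be told apart.

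The 7 genes had 17 probe sets, of which 15 passed the filter on low values (log2 intensity above 4 on at least 3 arrays) and belonged to 6 of the genes. Among the 15, the ranges of both sorts did not overlap for 5 that were higher in ICAM1-positive cells, where 23.6% of all probe sets tested did so, and for 5 that were lower, where 26.5% did so. Past an adjusted p of 0.05 in the limma fit over all probe sets were 16.9% as higher and 18% as lower, and calls of the 7 genes are not counted. The counts above follow from how the genes were chosen and are given as a description. Snai2 stood far above background in ICAM1-positive cells, Zeb1 and Vim were lower there, and Snai1, Zeb2, Twist1 and Twist2 lay near or below the array median in both sorts.

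**Figure D1:**
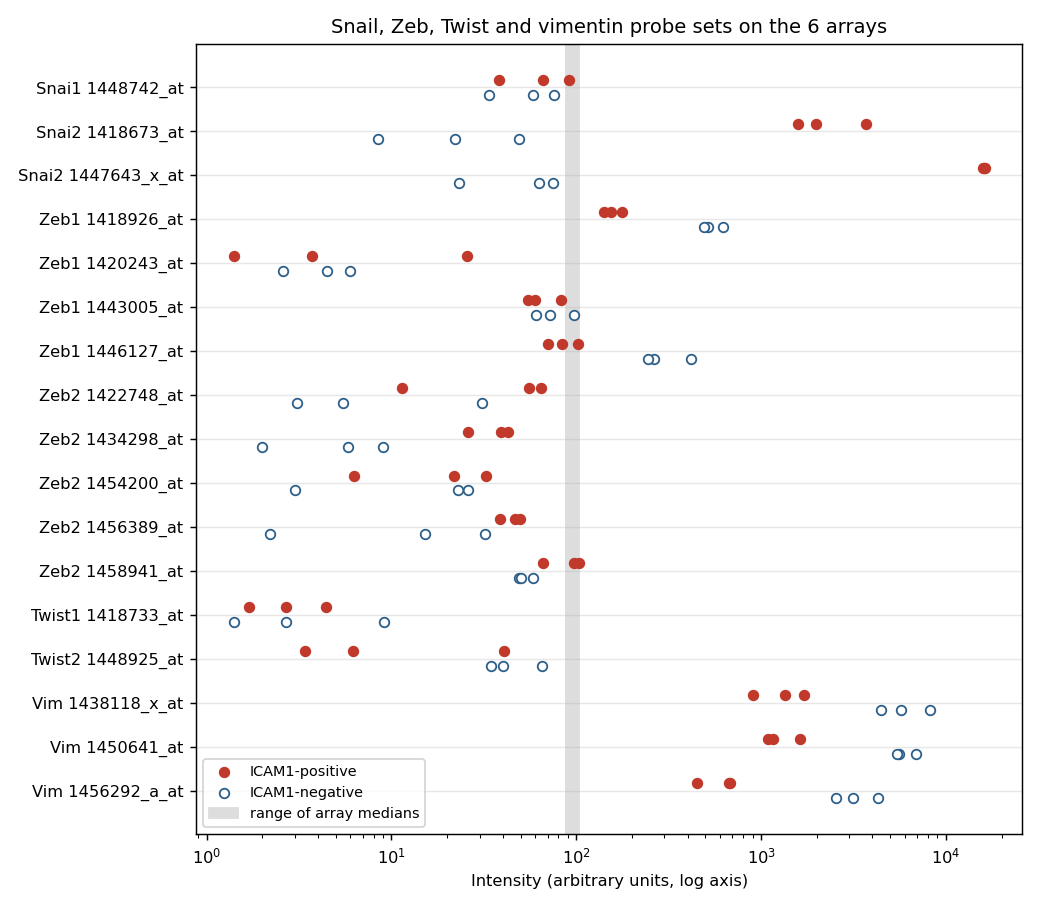
Intensity of each probe set (arbitrary units, log axis) on the 3 ICAM1-positive (filled) and 3 ICAM1-negative (open) arrays, with the range of array medians (87.9 to 102.8) shaded. Snai2 is far to the right in ICAM1-positive arrays, the 3 Vim probe sets and 2 of the Zeb1 probe sets lie to the left of their ICAM1-negative values, and the other probe sets lie within or below the shaded range, apart from 1 Zeb2 value of 103.1 at its edge.

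Snai2 is a member of the Snail family that in epithelia without transition marks basal and stem-like cells. Its probe set 1447643_x_at had intensities of 16248.8, 16016.9 and 15935.4 in ICAM1-positive arrays, against 23.1, 63.2 and 74.9 in ICAM1-negative arrays. All ICAM1-negative values lay below the array median, so the fold has only a lower bound: at least 166-fold higher when intensities below the median are raised to it. The log2 difference as measured was 8.39 ± 0.46 (SE of the fit, n = 3 per sort). The second Snai2 probe set, 1418673_at, had 1972.9, 3712.8 and 1576.4 in ICAM1-positive arrays, against 8.5, 48.8 and 22.1 in ICAM1-negative arrays. It gave a log2 difference of 6.75 ± 0.69, or at least 23.4-fold. Both probe sets placed every ICAM1-positive array above the median and every ICAM1-negative array below it. Within litters the first probe set differed by 9.46, 7.99 and 7.73 on the log2 scale and the second by 7.86, 6.25 and 6.16. With ICAM1-negative values this low, the sizes of these gaps have no order. An "_x_at" probe set may detect related transcripts too, and "_at" probe sets are designed to be specific to 1 gene.

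Snai1, another Snail gene and a direct repressor of E-cadherin in cultured cells, had 91.2, 38.1 and 66.3 in ICAM1-positive arrays, against 75.8, 33.9 and 58 in ICAM1-negative arrays. The sorts overlapped, all 6 values lay below their array medians, and the log2 difference was 0.21 ± 0.44. The values moved with litter in both sorts, highest in litter 1 and lowest in litter 2. Within litters the differences were 0.27, 0.17 and 0.19. Leaving out a whole litter kept the sign (0.18, 0.23 and 0.22 without litters 1, 2 and 3). Leaving out a single array, which breaks a litter pair, could turn it: the difference was -0.08 without the ICAM1-positive array of litter 1 and -0.11 without the ICAM1-negative array of litter 2.

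Zeb1, a zinc finger and homeodomain repressor of epithelial genes, was lower in ICAM1-positive cells by the probe sets that stood above background. Probe set 1418926_at had 154.1, 176.7 and 140.9 in ICAM1-positive arrays, against 516, 625.3 and 489.3 in ICAM1-negative arrays, and the sorts did not overlap. Its log2 difference was -1.79 ± 0.19, which is 3.45-fold lower, and the litters gave -1.74, -1.82 and -1.80. Probe set 1446127_at had 101.7, 83.8 and 70.2 in ICAM1-positive arrays, against 418.6, 261.7 and 243.8 in ICAM1-negative arrays, at least 3.10-fold lower because every ICAM1-positive value lay below the array median. The litter differences of this probe set were -2.04, -1.64 and -1.80, so all litters showed the lower level with both. The other Zeb1 probe sets did not show it: 1443005_at had 60.1, 54.6 and 82.4 in ICAM1-positive arrays, against 72.2, 60.5 and 97.6 in ICAM1-negative arrays, and 1420243_at did not pass the filter, with no value above 25.5. Averaging the 3 probe sets kept gave a smaller log2 difference for the gene, -1.28.

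Zeb2, the paralog of Zeb1, which macrophages also make, had 5 probe sets and all were dim. Of their 30 intensities 1 lay above its array median, the 103.1 of probe set 1458941_at in the ICAM1-positive array of litter 1. That probe set had 103.1, 66.4 and 96.8 in ICAM1-positive arrays, against 58.5, 49.2 and 50.2 in ICAM1-negative arrays, a log2 difference of 0.73 ± 0.23. Probe set 1434298_at had 25.8, 42.9 and 39.3 in ICAM1-positive arrays, against 9, 2 and 5.8 in ICAM1-negative arrays (2.90 ± 0.58), and 1456389_at had 46.4, 49.5 and 38.7, against 32.1, 15.2 and 2.2 (2.12 ± 0.96). For these 3 probe sets every ICAM1-positive array exceeded every ICAM1-negative array, but values this low carry no detection call, and no fold is given. The remaining probe sets, 1422748_at and 1454200_at, overlapped between sorts. Macrophage markers, 13 of 14, were higher in the same ICAM1-positive arrays (Csf1r, their growth factor receptor gene, 4583 ± 1161 in ICAM1-positive against 169.3 ± 39.4 in ICAM1-negative cells, SD, n = 3 each), and their part in the Zeb2 values was not tested.

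The Twist genes were at the bottom of the scale. Twist1, a mesoderm and neural crest factor, had 4.4, 1.7 and 2.7 in ICAM1-positive arrays, against 9.1, 1.4 and 2.7 in ICAM1-negative arrays, and its only probe set did not pass the filter. Twist2, its close paralog of dermal and other mesenchyme, had 40.6, 3.4 and 6.2 in ICAM1-positive arrays, against 34.6, 40.3 and 65.4 in ICAM1-negative arrays. The sorts overlapped in Twist2, since litter 1 differed by 0.23 on the log2 scale and litters 2 and 3 by -3.57 and -3.40. All Twist2 values lay below the array median.

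Vim was bright in both sorts and lower in ICAM1-positive cells by all 3 probe sets. Probe set 1450641_at had 1161.9, 1092.2 and 1632.7 in ICAM1-positive arrays, against 5597.5, 5439.7 and 6863.1 in ICAM1-negative arrays, a log2 difference of -2.22 ± 0.23 or 4.65-fold lower. Probe set 1438118_x_at had 907.9, 1707.4 and 1342.8 in ICAM1-positive arrays, against 4474.2, 8160.3 and 5732.2 in ICAM1-negative arrays, also 4.65-fold lower. Every array of the ICAM1-positive sort lay below every array of the ICAM1-negative sort, and the litter differences of these probe sets ran only from -2.32 to -2.07. The last, 1456292_a_at, had 447.8, 675.2 and 670.7 in ICAM1-positive arrays, against 2529.7, 4264 and 3142.7 in ICAM1-negative arrays, 5.51-fold lower. Macrophage markers were higher in the sort where Vim was lower, while neuron markers were lower with it: the tubulin gene Tubb3, of neurons, averaged 262.1 ± 50.8 in ICAM1-positive and 5100 ± 795 in ICAM1-negative cells (SD, n = 3 each). The part of either cell type in the Vim values was not tested.

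**Figure D2:**
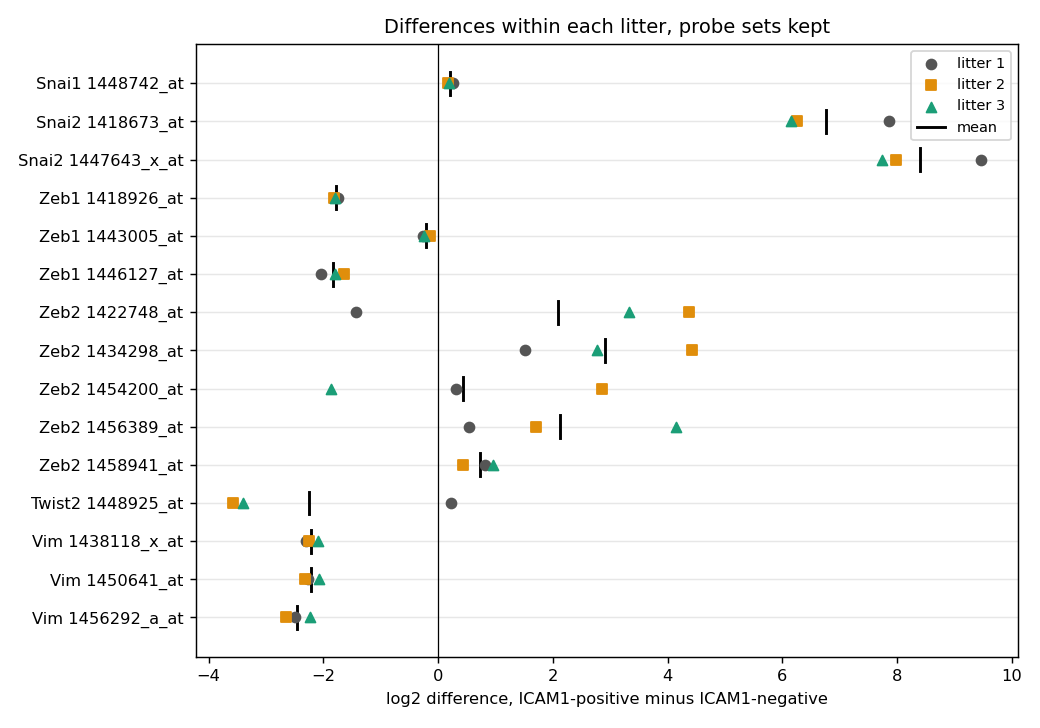
Log2 difference (ICAM1-positive minus ICAM1-negative) within each of the 3 litters for the 15 probe sets that passed the filter, with the mean as a bar. The litters lie close together for Vim and for Zeb1 1418926_at (-1.74 to -1.82), and spread over several log2 units for Twist2 and for the dim Zeb2 probe sets other than 1458941_at.

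Other genes with the nearest profiles were sought among 16393 genes, by the root mean square difference in log2 intensity after each gene was centred on its own mean over the 6 arrays. Nearest to Snai2 were the chemokine gene Ccl20 (0.31), Icam1 itself (0.34) and the carboxylesterase gene Ces2b (0.40). Nearest to Zeb1 1418926_at were the tubulin ligase-like gene Ttll5 (0.07), the intraflagellar transport gene Ttc26 (0.08) and the replication protein gene Rpa3 (0.08). Nearest to Vim 1438118_x_at were the vascular malformation gene Ccm2 (0.11), the kinase gene Sbk1 (0.12) and the adaptor gene Grb14 (0.15). The profiles are mostly the gap between the sorts. For Snai2 and its neighbours every ICAM1-negative value lay below the array median, so their distances and ranks rest on values without a measured order. For the dim genes, the nearest were 9330175E14Rik, Srsf5 and Bak1 to Snai1 (0.11 to 0.14), Smpd2, Sptlc2 and Tmem42 to Zeb2 (0.07 to 0.08), and Cyp2b13, Zpbp and Lpo to Twist2 (0.34 to 0.39).

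**Figure D3:**
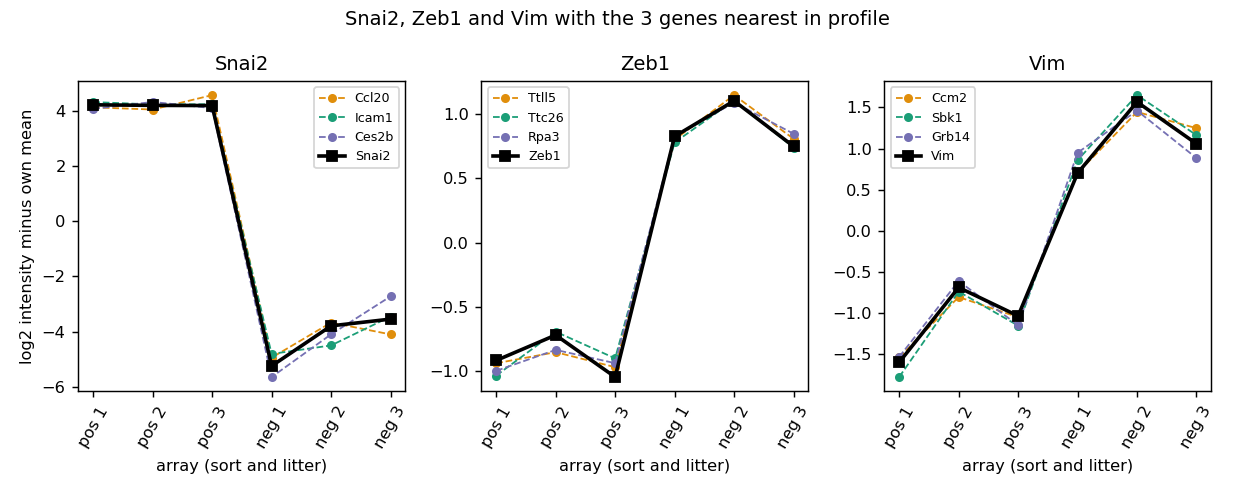
Log2 intensity minus the gene's own mean over the 6 arrays, for Snai2, Zeb1 and Vim (black) and the 3 genes nearest to each. ICAM1-positive arrays (pos) are on the left and ICAM1-negative arrays (neg) on the right, numbered by litter; Snai2 and its neighbours step down between the sorts, and Zeb1, Vim and theirs step up.

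The RefSeq promoter table (GRCm38.p6, 250 bases before to 50 after each start site) held 8 promoters of 5 of the 7 genes: Snai1, Zeb2, Twist1, Twist2 and Vim. They were searched for CACCTG on both strands, that is for CACCTG or its reverse complement CAGGTG, and for the wider E-box CANNTG, which includes it. CACCTG was in 20.2% of all 32851 promoters and CANNTG in 72.3%. Among the 8, 1 held either motif, the Snai1 promoter, with CACCTG starting 126 bases before the start site. It is shown with the Vim promoter because Vim and Snai1 are the mesenchymal filament gene and the Snail gene of this set with an entry, and capitals mark CACCTG.
Snai1, chr2:167537945-167538244, plus strand: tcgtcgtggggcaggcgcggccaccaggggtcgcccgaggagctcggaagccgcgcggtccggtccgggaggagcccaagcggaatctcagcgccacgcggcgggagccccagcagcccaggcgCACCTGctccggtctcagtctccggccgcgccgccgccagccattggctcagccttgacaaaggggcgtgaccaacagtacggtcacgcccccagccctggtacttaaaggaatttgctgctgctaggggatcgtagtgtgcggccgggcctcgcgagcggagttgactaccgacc
Vim, chr2:13574061-13574360, plus strand: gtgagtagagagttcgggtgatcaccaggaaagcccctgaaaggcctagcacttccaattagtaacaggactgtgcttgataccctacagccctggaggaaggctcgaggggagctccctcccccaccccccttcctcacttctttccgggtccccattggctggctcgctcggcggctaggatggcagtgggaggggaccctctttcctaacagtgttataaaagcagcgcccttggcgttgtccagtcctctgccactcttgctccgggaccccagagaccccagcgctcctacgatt

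The surrounding pathway was read from 6 lists with 137 entries, of which 130 genes were tested in limma. Over all 16399 genes, 20.6% passed the threshold as higher and 20.8% as lower, with a median log2 difference of -0.06. Inducers of Snail, Zeb and Twist genes were mostly higher in ICAM1-positive cells: 18 of 24 rose and 1 fell, with a list median of 1.49. The largest rises by the naming rule were in Trp63, the basal cell transcription factor (21344 ± 582 in ICAM1-positive against 120.4 ± 103 in ICAM1-negative cells, SD, n = 3 each; limma adjusted p = 0.000335), and Egfr, the EGF receptor (3843 ± 249 against 82.73 ± 48.2; adjusted p = 0.000737). The TGF-beta type II receptor gene Tgfbr2 rose by 4.92 ± 0.33 on the log2 scale (limma adjusted p = 0.000269). Its ICAM1-negative value in litter 1, 84.7, lay below the array median, and with this raised the Tgfbr2 difference was 4.83. Met, the receptor for hepatocyte growth factor, rose by 4.66 ± 0.20 (limma adjusted p = 0.000133). The gene that fell was the type I receptor Tgfbr1 (-0.76 ± 0.17, adjusted p = 0.0161), which lost its call without litter 1 (0.147), without litter 3 (0.127) or without any of 3 single arrays (0.0513 to 0.0618). Trp63 and Egfr are horizontal basal cell markers as well.

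Epithelial adhesion and polarity genes that Snail or Zeb proteins repress in other systems, listed with the epithelial regulators opposing them, were split. Of this list, Itgb4 is a horizontal basal cell marker as well, and Krt8 and Krt18 are sustentacular markers. Of 33 genes 18 rose, 4 fell and 11 did not pass, with a median of 0.93; without litter 1 the count lower was 2. Those that rose most, with low values raised to the array median, were the keratin gene Krt19 (9521 ± 1921 in ICAM1-positive against 105.4 ± 49.9 in ICAM1-negative cells, SD, n = 3 each; limma adjusted p = 0.000189), the hemidesmosome integrin gene Itgb4 (at least 20.2-fold), the plakophilin gene Pkp3 (3.66 ± 0.29) and Grhl2, an epithelial transcription factor that opposes Zeb1 (2.67 ± 0.18). Cdh1, which encodes E-cadherin and was named after its values were seen, had 4547.5, 6931.1 and 5468.7 in ICAM1-positive arrays, against 1675.8, 2206.9 and 2064.3 in ICAM1-negative arrays. It rose by 1.50 ± 0.23 (adjusted p = 0.00414, and 0.055 without litter 3), in the same arrays that held the high Snai2 values. Whether the same cells held both transcripts, and any effect of Snai2 on Cdh1, was not tested.

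The 4 epithelial genes that fell act at tight junctions or apical polarity, but other genes of these classes rose. The claudin gene Cldn1 was at least 2.45-fold higher. Cldn4, another claudin gene, rose by 2.35 ± 0.35 (limma adjusted p = 0.00381) and the polarity gene Patj by 1.27 ± 0.19 (limma adjusted p = 0.0037). The junction scaffold gene Tjp1 did not pass. All of these were named after their values were seen. The claudin gene Cldn3 had 509.3, 781.1 and 846.3 in ICAM1-positive arrays, against 5749.5, 5895.9 and 5971.2 in ICAM1-negative arrays (-3.08 ± 0.24, limma adjusted p = 0.000399). Ocln, which encodes occludin, fell by 1.32 on the log2 scale (SE 0.16, adjusted p = 0.00175). Tjp3, a junction scaffold gene, fell by 1.10 (SE 0.19, adjusted p = 0.00627; 0.0767 without litter 1). Crb3, which encodes an apical polarity protein, fell by 1.04 (SE 0.20, adjusted p = 0.0105; 0.0868 without litter 1 and 0.0839 without litter 3). Neuron markers fell in the same arrays, 9 of 9, and their part in these falls was not tested.

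Promoters were in the table for 21 of the 33 epithelial genes. CACCTG was in 16 of the 21 (76.2%), against 22.6% of all 27025 genes in the table, when a gene counts once over all of its promoters. The list was drawn from genes that Snail or Zeb proteins repress elsewhere and their opposing regulators, so this share may follow from that choice. The wider CANNTG was in 78.6% of the list's 28 promoters. By direction in the array data, CACCTG was in 8 of 10 genes that rose and 4 of 4 that fell. It was in 4 of 7 that did not pass, so this match was present whichever way the gene moved. The promoter with the most matches among the genes that fell (Crb3, 4 matches) and among those that rose (Patj, a polarity scaffold gene, 3 matches) are shown, chosen after the matches were counted, with CACCTG or CAGGTG in capitals. A match is a run of letters and does not show binding.
Crb3, chr17:57061951-57062250, plus strand: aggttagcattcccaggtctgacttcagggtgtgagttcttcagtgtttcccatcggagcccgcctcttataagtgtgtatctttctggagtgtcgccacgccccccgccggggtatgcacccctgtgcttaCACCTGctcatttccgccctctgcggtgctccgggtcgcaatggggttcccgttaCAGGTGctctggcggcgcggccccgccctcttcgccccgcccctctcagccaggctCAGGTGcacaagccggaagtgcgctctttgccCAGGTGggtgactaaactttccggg
Patj, chr4:98395576-98395875, plus strand: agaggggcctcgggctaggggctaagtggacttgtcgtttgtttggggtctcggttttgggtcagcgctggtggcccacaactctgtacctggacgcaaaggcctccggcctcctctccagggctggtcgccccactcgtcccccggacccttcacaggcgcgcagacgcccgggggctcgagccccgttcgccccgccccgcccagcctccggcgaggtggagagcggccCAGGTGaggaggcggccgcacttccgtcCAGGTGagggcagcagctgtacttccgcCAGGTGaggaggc

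**Figure D4:**
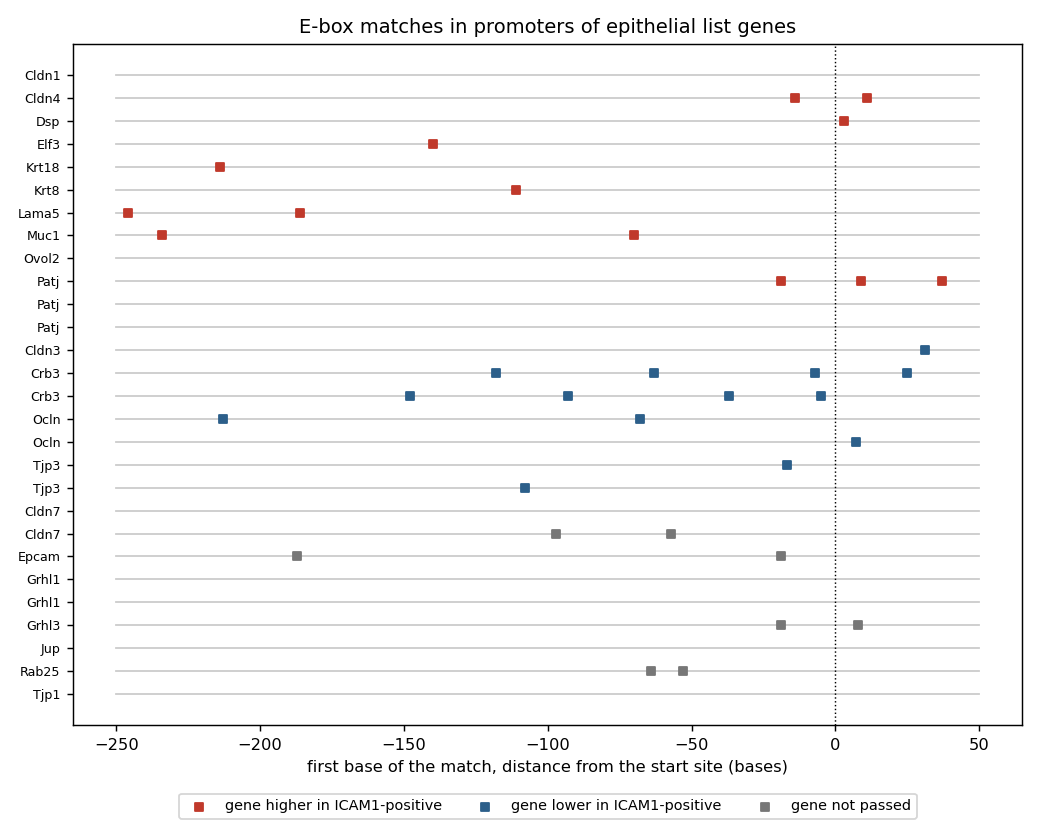
Position of each CACCTG or CAGGTG match (its first base, in bases from the start site at 0) in the 28 promoters of 21 epithelial list genes, coloured by whether the gene was higher, lower or not past the threshold in ICAM1-positive cells. A line without a mark is a promoter with no match; promoters of 1 gene can overlap and share matches, as both Crb3 lines do.

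Genes of mesenchymal cells rose in part. Of 26 genes tested 13 rose and 0 fell in limma, with a list median of 1.78. At an unadjusted p under 0.05 the counts were 14 higher and 1 lower; without litter 1, 9 were higher, 1 was lower without litter 3, and 2 were lower without the ICAM1-negative array of litter 3. Itgav, the integrin alpha V gene, had 11118.6, 10516.1 and 10708.3 in ICAM1-positive arrays, against 430.7, 429.9 and 390.3 in ICAM1-negative arrays (4.69 ± 0.16, adjusted p = 0.000124). The matricellular gene Thbs1 was at least 17.8-fold higher. Sparc, another such gene, rose by 4.47 ± 0.63 (limma adjusted p = 0.00306). Its ICAM1-negative value in litter 3, 39.4, lay below the array median, and with this raised the Sparc difference was 4.06. Ccn2, a connective tissue growth factor gene, rose by 3.98 ± 0.24 (limma adjusted p = 0.000221). Textbook transition markers were named after their values were seen. Cdh2, which encodes N-cadherin, rose by 0.78 ± 0.24 (adjusted p = 0.0477; 0.201, 0.0787 and 0.14 without litters 1, 2 and 3), and Fn1 (fibronectin) and Acta2 (smooth muscle actin) did not pass, at 0.24 ± 0.16 and 0.35 ± 0.30.

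Fibroblast and pericyte markers were read beside that list, since 7 of its 26 genes are also on one of these marker lists. Col1a1, Col1a2, Col3a1 and Pdgfra are fibroblast markers, and Acta2, Tagln and Pdgfrb are pericyte markers. Of 10 fibroblast markers 2 rose and 2 fell, which is near the share of all genes tested (20.6% higher and 20.8% lower). The summed intensity of the markers was 3916.6 to 6114.9 in ICAM1-positive and 2182.7 to 4258.5 in ICAM1-negative arrays. Those that rose were Dcn, the decorin gene (3468 ± 917 in ICAM1-positive against 907.2 ± 220 in ICAM1-negative cells, SD, n = 3 each; limma adjusted p = 0.00354), and the fibulin gene Fbln1 (793.9 ± 127 against 202.3 ± 53.9; adjusted p = 0.00209), both named after their values were seen. Col6a1 fell (32.77 ± 11.7 in ICAM1-positive against 264.1 ± 27.7 in ICAM1-negative cells, limma adjusted p = 0.000647). Col6a2 fell as well (86.03 ± 6.05 against 193.7 ± 44.6, adjusted p = 0.0115), and both were named after their values were seen. Col1a2 did not pass, with 148.2, 289.4 and 398.4 in ICAM1-positive arrays, against 2264.7, 1170.8 and 210.6 in ICAM1-negative arrays. The part of fibroblasts in the mesenchymal genes and in the Vim values was not tested. The collagen genes Col1a1, Col3a1, Col6a1 and Col6a2, with Lum and Mfap5, lay at or below the array median on all 3 ICAM1-positive arrays. Of 10 endothelial markers 1 rose and 0 fell, also at an unadjusted p under 0.05 in limma, and 7 lay at or below the median on all 6 arrays, among them Cdh5 and Kdr, the defining cadherin and receptor genes of endothelium. The endothelial marker that rose was Ramp2 (194.8 ± 40.8 in ICAM1-positive against 50.77 ± 13.7 in ICAM1-negative cells, SD, n = 3 each; limma adjusted p = 0.00287). Of 9 pericyte markers 1 rose and 0 fell (2 and 2 at an unadjusted p under 0.05), of 8 glial markers 2 rose and 1 fell, and of 4 lymphocyte markers 0 rose and 1 fell (0 and 2 unadjusted). Summed intensity was 3809.7 to 4835.1 in ICAM1-positive and 4806 to 5828.1 in ICAM1-negative arrays for pericyte markers, and 1767.6 to 2078.2 in ICAM1-positive and 976 to 1166 in ICAM1-negative arrays for glial markers.

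**Figure D5:**
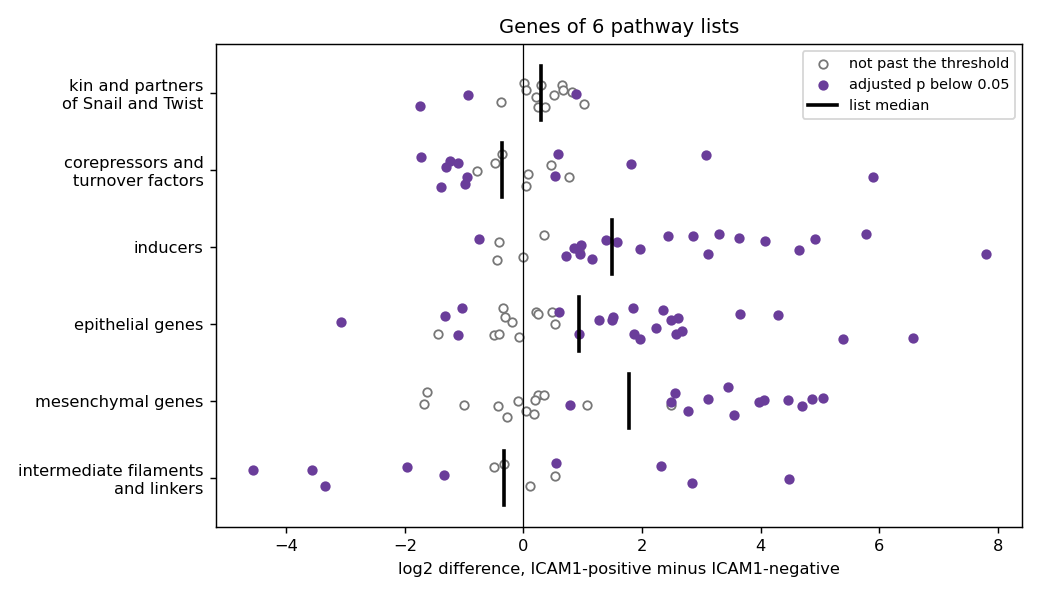
Log2 difference (ICAM1-positive minus ICAM1-negative) of each tested gene in the 6 pathway lists, filled where the limma adjusted p was below 0.05, with the list median as a bar. Inducers (median 1.49) and mesenchymal genes (median 1.78) lie mostly to the right, and intermediate filament genes spread to both sides.

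Vimentin assembles with or is linked to other cytoskeletal proteins. The list of intermediate filament and linker genes, which also holds nuclear lamin genes, was split in direction. Of 13 intermediate filament and linker genes 4 rose and 5 fell (median -0.33); with litter as a block the counts were 3 and 3, and the count lower was 2 without litter 1 and 3 without litter 2 or 3. Those lower were neuronal or nuclear: Prph, the peripherin gene of neurons, had 24.1, 104.6 and 85.3 in ICAM1-positive arrays, against 1369.7, 1202.7 and 1737.6 in ICAM1-negative arrays (-4.57 ± 0.58, limma adjusted p = 0.00202). Of its ICAM1-positive values 2 lay below the array median, and with these raised the Prph difference was -3.80. The internexin gene Ina was at least 4.79-fold lower, and the lamin gene Lmnb2 fell by 1.34 on the log2 scale (SE 0.25, adjusted p = 0.00854; 0.0834 and 0.0637 without litters 1 and 3). With its probe sets averaged the Lmnb2 difference was -0.69 and its call was lost (adjusted p = 0.0875). The neurofilament gene Nefh was at least 1.44-fold lower, but lost its call with litter as a block (adjusted p = 0.0607) and without litter 1 (0.117) or 2 (0.116). Nefl, another neurofilament gene, named after its values were seen, passed as lower (adjusted p = 0.0426) but not with litter as a block (0.0675), without litter 1, 2 or 3 (0.177, 0.123 and 0.0757) or with low values raised (0.714). Those higher were the plectin gene Plec (4.47 ± 0.26, adjusted p = 0.000197), the lamin A gene Lmna (2.85 ± 0.15), the synemin gene Synm (2.33 ± 0.20) and Nes, the nestin gene (0.54 ± 0.16, adjusted p = 0.045; 0.0541 with litter as a block and 0.125 to 0.267 without a litter).

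Corepressors and turnover factors of Snail and Zeb proteins moved both ways. Of 19 genes 5 rose and 7 fell in limma (median -0.36), against 3 higher without any 1 litter and 3 lower without litter 1 or litter 3. Ajuba, which encodes a LIM domain corepressor that binds Snail, had 9396.4, 9134.8 and 10506.4 in ICAM1-positive arrays, against 134.7, 174.2 and 180.2 in ICAM1-negative arrays (5.90 ± 0.19, adjusted p = 0.000124). Its family member Wtip rose by 3.08 ± 0.16 (adjusted p = 0.000168), and the remaining gene that rose, named after its values were seen, was the Ajuba family gene Limd1 (0.54 ± 0.16, adjusted p = 0.0479; 0.241, 0.0985 and 0.234 without litters 1, 2 and 3). Usp27x, a ubiquitin protease gene whose product stabilises Snail, rose by 1.82 ± 0.21 (adjusted p = 0.00148; 0.233 with its probe sets averaged). The histone deacetylase scaffold gene Sin3a rose by 0.58 ± 0.17 (adjusted p = 0.0413; 0.0619 with litter as a block, 0.128 with its probe sets averaged and 0.126 to 0.251 without a litter).

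Genes of chromatin repressor complexes were among those lower. The polycomb genes Ezh2 and Suz12 fell by 1.72 (SE 0.16, limma adjusted p = 0.000704) and 1.31 (SE 0.18, adjusted p = 0.00294) on the log2 scale, and Rcor1, the CoREST gene, by 1.40 (SE 0.17, adjusted p = 0.00191). Btrc, which encodes a ubiquitin ligase subunit that recognises phosphorylated Snail, fell by 1.25 (SE 0.17, adjusted p = 0.0029; 0.0521 and 0.0506 without litters 1 and 3). With its probe sets averaged the Btrc difference was -0.59 and its call was lost (adjusted p = 0.193).

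Kin and partners of Snail and Twist mostly did not pass. Of 15 genes tested 1 rose, 2 fell and 12 did not pass, with a median of 0.30. Id4, which encodes an inhibitor of E proteins, had 3358, 4821.4 and 4277.8 in ICAM1-positive arrays, against 13722.9, 13155.1 and 14587.7 in ICAM1-negative arrays (-1.75 ± 0.20, limma adjusted p = 0.00135). Id1, of the same family, rose by 0.89 ± 0.22 (adjusted p = 0.0245; 0.139, 0.0609 and 0.109 without litters 1, 2 and 3). Tcf15, a helix-loop-helix gene, was dim in both sorts and its fall (adjusted p = 0.0492) was lost with litter as a block (0.107) and without litter 1 (0.262) or 2 (0.236). With litter as a block 5 were higher and 1 lower. Without litter 1 or litter 3, 0 were higher, without litter 2, 2 were higher, and without litter 1 or 2, 1 was lower; unadjusted p under 0.05 gave 4 higher and 2 lower over all arrays. Below the array median on all 6 arrays were the Snail relatives Scrt1 and Scrt2 and the mesenchymal genes Hand1, Hand2, Tcf21 and Prrx1.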

How the data were processed

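RNA from each of the 6 sorted samples was extracted with TRIzol, amplified in 2 rounds and run on 1 Affymetrix Mouse Genome 430 2.0 array, per the labels. The authors deposited linear intensities. GCRMA is named in the submitters' processing notes, but its output would be log2 values with near-equal quantiles. The deposited intensities have a mean of about 499.8 on every array after 2% is trimmed from each end. For the program and the background correction, the sources used here give nothing further. The file holds 45101 probe sets; 64 controls were left out and 38694 kept.

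Log2 intensities entered limma (version 3.58.1, under R 4.3.3; two-sided test, Benjamini-Hochberg over all probe sets kept), without a block. A gene of a list is its brightest kept probe set with 1 symbol (34945 probe sets have 1, 932 several, 9160 none listed). The step was tested on simulated data. Litters are separate animals, per the series text, and pair the sorts; deviations from the group means correlated at 0.127, 0.199 and 0.0812 for arrays of the same litter. "At least" folds raise intensities below the array median to it and have no error.

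The 7 genes, the 6 pathway and 9 marker lists and the tests were chosen with earlier results of these data known. Named list genes are the 4 called genes with the largest differences in each direction after low values are raised. Scanner files were not used here. With 3 arrays a sort, precision is limited by their number.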

Additional observations from a re-analysis of the deposited data

How the results depend on the processing

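The 7 genes' differences are a description. That of Snai1 changed sign without either of 2 single arrays, as given above. Among the probe sets kept, the sign also differed between litters for Twist2 and for 2 dim Zeb2 probe sets. Litters 1, 2 and 3 gave 0.32, 2.85 and -1.86 for 1454200_at, and -1.43, 4.38 and 3.33 for 1422748_at. With litter as a replicate block, the kin and partner list had 5 genes higher and 1 lower, and the intermediate filament list 3 lower. Tcf15, Sin3a, Nes, Nefh and Nefl lost their calls as given above. Hand2 (limma adjusted p = 0.0248) and Tcf21 (0.0416), below the median on all arrays, gained one. So did Id2 (0.0185, against 0.113 without a block) and Id3 (0.0427, against 0.0539), above the median on all arrays. The block changed no other call of a list gene named here. With an intensity trend, 4 kin and partner genes were higher and 1 lower, 2 inducers were lower and 7 epithelial genes were lower. When intensities below an array's median were raised to it, the counts were 3 and 1 for kin and partners, 2 lower for inducers and 7 lower for epithelial genes. With probe sets averaged, with an offset of 16 or with a stricter filter, 3 kin and partner genes were higher, and with the stricter filter 2 inducers were lower. Without a filter 1 kin and partner gene was lower, 3 corepressors were higher and 3 filament genes were lower. Leaving out a litter or an array gave 3764 to 5854 probe sets higher and 3678 to 6013 lower, against 6528 and 6984; the low ends were without litter 1 (3764 and 3678) and litter 3 (3775 and 3915). It gave 0 to 2 higher and 1 to 2 lower for kin and partners, 3 higher and 3 to 8 lower for corepressors, 12 to 17 higher and 0 to 1 lower for inducers, and 14 to 17 higher and 2 to 6 lower for epithelial genes. It gave 9 to 13 higher and 0 to 2 lower for mesenchymal genes, and 3 higher and 2 to 5 lower for filament genes. Leaving out samples leaves fewer arrays to estimate the spread; the cause of the other changes was not tested. Icam1 and the list genes named by the naming rule lost their calls in 66 of 629 repeats and changed sign in none. Genes named after their values were seen, such as Limd1, Cdh1, Cdh2 and Nefl, are outside this count. Intensities near the array median limit what can be said of Snai1, Zeb2, Twist1 and Twist2.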
